A study of Mus musculus with 20 samples.

Results

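The Src family kinases and the core of the focal adhesion are covered here by 10 genes, taken by symbol from the 17104 genes listed in at least 1 of 3 tables of mRNA levels. They are the Src family kinases Src, Yes1, Fyn and Lyn, their inhibitory kinase Csk, the focal adhesion kinases Ptk2 and Ptk2b, the adaptors Pxn and Bcar1, and the integrin-linked kinase gene Ilk. All 10 were listed in every table. RNA was sequenced from MycCaP-Bo cells, a bone-homing mouse prostate cancer line, which were injected into the heart of mice aged 4 to 6 weeks and sorted from bone metastases as iRFP-positive cells without CD45. Each of the 4 groups held 5 libraries, each from cells of 3 pooled mice. Naive tumors received vehicle, and Resist tumors received enzalutamide, an androgen receptor antagonist, at 30 mg/kg by daily gavage for 18 d. Resist-Mac tumors received the same enzalutamide course with clodronate liposomes, which deplete macrophages, at 1 mg per mouse intravenously in the last 4 d. Naive-Mac tumors received vehicle and clodronate liposomes for 4 d. All groups thus carried tumors of 1 cell line. The study's methods name FVB/N males as the mice in which MycCaP-Bo was selected for bone homing, and the labels give no strain for the mice sequenced.

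When integrins bind fibronectin, focal adhesion kinase, encoded by Ptk2, is recruited and phosphorylates itself, which opens a docking site for Src. The Src and focal adhesion kinase pair then phosphorylates paxillin (Pxn) and p130Cas (Bcar1), the scaffolds of the adhesion. Csk holds Src family kinases inactive by phosphorylating a tyrosine in their tail. These steps act on proteins and their phosphorylation, and the libraries measured mRNA only.

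Levels are given in FPKM, which is scaled for transcript length and sequencing depth, so that levels of different genes can be compared. Changes are differences of mean log2(FPKM + 1), with the first-named group minus the second. A gene was called changed in limma's test at a Benjamini-Hochberg adjusted p under 0.05 over all genes tested, together with a fold change over 1.5. Between 12087 and 14056 genes were above 0 per library. Tumor cell genes were present in every group: Krt8, a luminal keratin, averaged 107 to 317 FPKM and Foxa1, a prostate transcription factor, 48.3 to 122 FPKM. The epithelial markers Cdh1, Krt18 and Cldn7 were at or near 0 in all 4 groups, with group means of at most 0.106 FPKM. Neutrophil transcripts were also present, with 10 markers summing to 61.4 to 1270 FPKM in the naive and Resist libraries and 58.7 to 8774 FPKM in the depleted groups. Depletion of macrophages, the batch given in the labels and the table of values changed together, so that these cannot be told apart in any comparison with Resist-Mac or Naive-Mac.

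**Figure D1:**
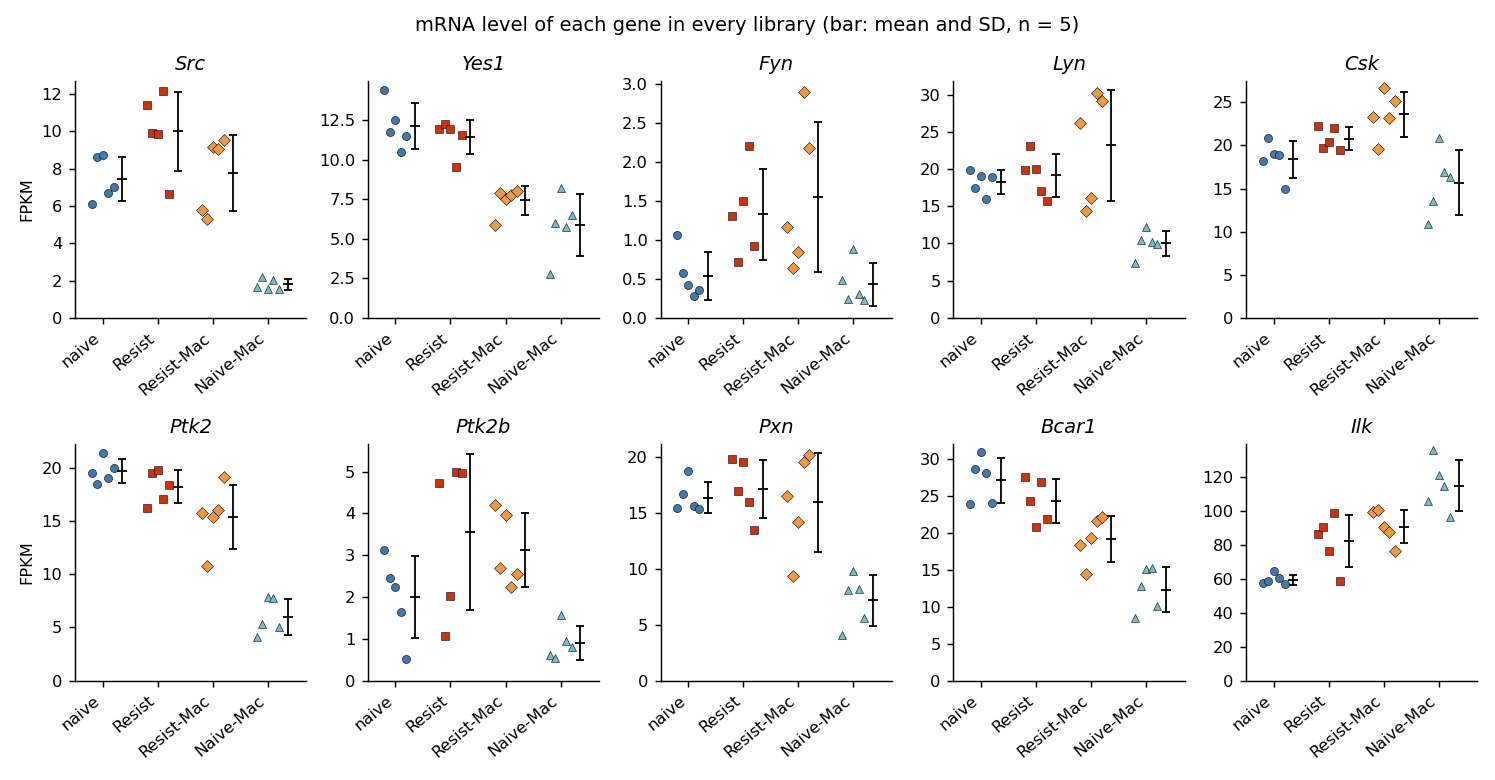
FPKM of the 10 genes in every library of the 4 groups; points are libraries, and each bar is the mean with its SD (n = 5). Src in Naive-Mac lay between 1.54 and 2.21 FPKM, below every naive library, whereas Ilk in Naive-Mac lay between 96.15 and 135.42 FPKM, above every naive library.

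In naive tumor cells, Ilk had the highest level of the 10 genes at 59.5 ± 2.94 FPKM (SD, n = 5). Bcar1 followed at 27.2 ± 3.09 FPKM. Ptk2, Csk, Lyn and Pxn formed a middle tier, with group means from 16.4 to 19.7 FPKM whose library ranges overlapped from neighbor to neighbor. Yes1 at 12.2 ± 1.45 FPKM lay above Src at 7.43 ± 1.18 FPKM in every naive library. Ptk2b, the gene of the calcium-responsive paralog Pyk2, had 2.00 ± 0.984 FPKM, and Fyn had the lowest level at 0.540 ± 0.311 FPKM. Ilk was the highest and Fyn the lowest by mean in the other groups too.

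The Src family of these cells was thus made up mainly of Lyn and Yes1 transcripts. Lyn, best known in blood cells but also found in epithelia, held 45.4% to 50.1% of the summed FPKM of Src, Yes1, Fyn and Lyn in naive libraries. Yes1 held 30.4% to 34.8%, Src 14.7% to 22.5% and Fyn 0.84% to 2.56%. In Resist libraries Lyn held 41.5% to 50.3%, Yes1 23.4% to 33.1%, Src 19.1% to 29.7% and Fyn 1.54% to 5.40%. Each of these ranges overlapped between naive and Resist. Lyn has an unprocessed pseudogene, Gm11787, of 1050 bases, which had an identity of 0.988 to the Lyn transcript. How reads that match both were assigned was not given in the sources used here, so the Lyn level is uncertain.

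Whether resistance to enzalutamide came with other levels of these kinases and adaptors was addressed by Resist vs. Naive, in which both groups lay in 1 table and 1 batch. None of the 9 genes tested was called changed (0 of 9), where 6.35% of the 10119 genes tested were called. Ilk alone passed an adjusted p of 0.05 without regard to fold, where 18.9% of all genes did so. The 5 Resist and 5 naive libraries overlapped for each of the 9, whereas 12.8% of all genes tested had groups that did not overlap. At an unadjusted p under 0.05, the limma fit had 2 of the 9, Src and Ilk, where 34.5% of all genes passed. The median change of the 9 was 0.06 on the log2 scale and that of all genes was 0.03.

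**Figure D2:**
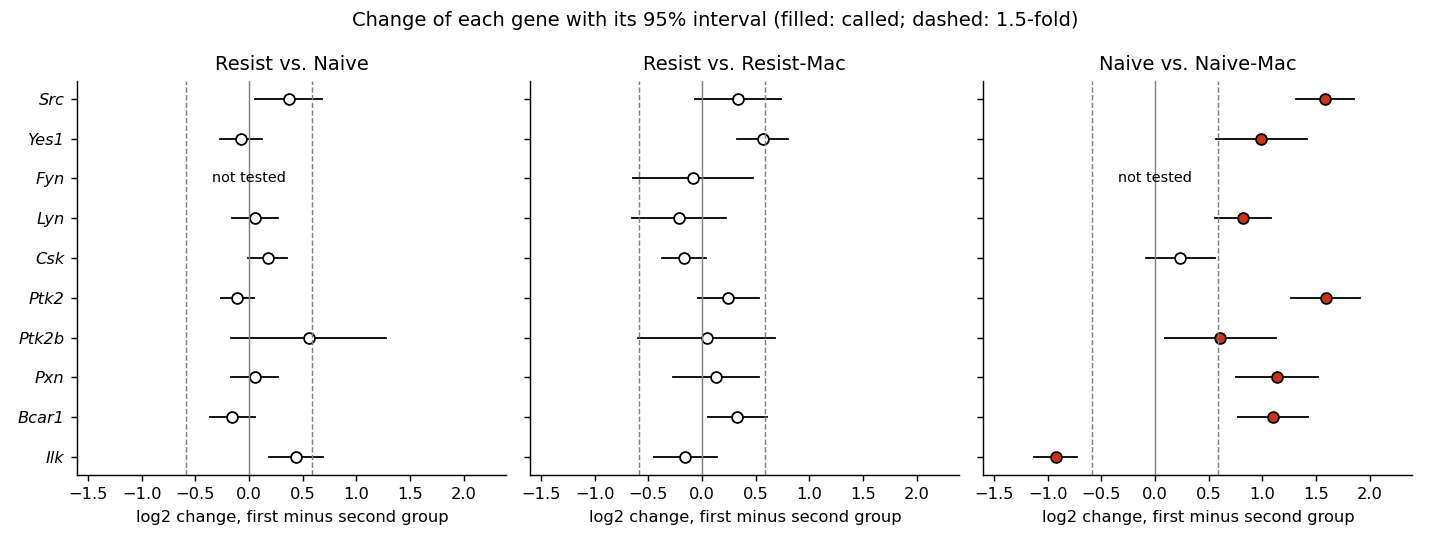
Differences of mean log2(FPKM + 1) with 95% intervals for each gene in 3 comparisons; filled points passed the adjusted p and the 1.5-fold threshold (dashed lines). No point is filled in Resist vs. Naive or Resist vs. Resist-Mac, and 8 are filled in Naive vs. Naive-Mac, with Ilk alone on the negative side.

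Src is the founding kinase of the family and the partner of focal adhesion kinase. Its level was 6.10, 8.62, 8.73, 6.71 and 7.01 FPKM in naive replicates 1 to 5 and 11.43, 9.89, 9.88, 12.16 and 6.66 FPKM in Resist replicates 1 to 5. In these values 4 Resist libraries exceeded every naive library and replicate 5 fell among the naive ones. The change was 0.37 (SE 0.14, 95% interval 0.06 to 0.68, limma adjusted p = 0.0893), a ratio of mean FPKM of 1.35. Without Resist replicate 5 it was 0.50 with a limma adjusted p of 0.00775, still under the 1.5-fold threshold, and without any other single library it was 0.30 to 0.42 (limma adjusted p 0.0819 to 0.193). With the correction for length and GC content it was 0.22 (limma adjusted p = 0.184).

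Ilk encodes a pseudokinase that binds integrin tails and ties them to actin through parvin. Its level was 57.61, 58.66, 64.20, 60.14 and 56.70 FPKM in naive tumors and 86.40, 90.30, 76.41, 98.86 and 58.60 FPKM in Resist tumors. Replicate 5 of Resist again lay within the naive range, and the other 4 lay above it. The change was 0.44 (SE 0.12, 95% interval 0.19 to 0.69, limma adjusted p = 0.0215), which is under 1.5-fold, so Ilk was not called. Leaving out single libraries gave changes of 0.37 to 0.55 and limma adjusted p of 0.000494 to 0.0509, the last without naive replicate 1. Of the 2744 exonic bases of Ilk in the GENCODE annotation, 2106 are shared with Taf10 and 355 with Rrp8, both on the opposite strand. No strand setting is stated, so reads of Ilk and Taf10, a subunit of the general transcription factor TFIID, cannot be told apart over these bases. Taf10 itself had 102.43 to 121.66 FPKM in Resist and 113.50 to 123.28 FPKM in naive libraries, a change of −0.11 (limma adjusted p = 0.226). Rrp8 changed by 0.03 (limma adjusted p = 0.821). The level of Ilk divided by that of Taf10 was 0.468 to 0.566 in naive libraries and 0.482 to 0.882 in Resist libraries.

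Src and Ilk moved together across the 10 naive and Resist libraries, with a Pearson correlation of log2(FPKM + 1) of 0.901, which placed Ilk at rank 43 of the 10118 other genes tested. These libraries share their group structure, so the value is a description. Their promoter windows from RefSeq (GRCm38.p6, 250 bases before to 50 after the start, plus strand) are shown because Ilk had the highest correlation with Src among the other tested members, with the GC box GGGCGG, read on either strand, in capitals.
Src promoter, chr2:157424043-157424342: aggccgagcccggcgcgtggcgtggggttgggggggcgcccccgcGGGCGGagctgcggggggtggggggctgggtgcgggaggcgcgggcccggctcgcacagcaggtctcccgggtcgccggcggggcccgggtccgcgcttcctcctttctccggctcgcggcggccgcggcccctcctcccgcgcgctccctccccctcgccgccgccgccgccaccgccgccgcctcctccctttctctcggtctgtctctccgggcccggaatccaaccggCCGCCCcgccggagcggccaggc
Ilk promoter, chr7:105736475-105736774: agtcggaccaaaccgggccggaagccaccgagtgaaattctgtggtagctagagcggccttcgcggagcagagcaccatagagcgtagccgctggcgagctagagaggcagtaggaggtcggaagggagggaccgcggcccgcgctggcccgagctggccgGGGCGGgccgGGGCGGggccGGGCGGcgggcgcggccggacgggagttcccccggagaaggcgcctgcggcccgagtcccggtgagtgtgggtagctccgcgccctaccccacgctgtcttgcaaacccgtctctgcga
The Src window held 2 GC boxes and 82.3% G and C, and the Ilk window held 3 GC boxes and 72.0%, against a median of 52.7% over all windows. A GC box was found in 35.7% of the 32851 promoter windows. Neither window held the TATA box TATAAA, found in 13.6% of windows, nor the AP-1 site TGANTCA, found in 7.8%, nor the letters CCAAT, found in 37.4%, with both strands searched. A second Ilk start lies upstream of the one shown and overlaps its window; that other window held no GC box. Windows were present for 6 of the 10 genes, namely Bcar1, Csk, Fyn, Ilk, Src and Yes1.

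Yes1, a broadly expressed relative of Src, had 10.53 to 14.41 FPKM in naive and 9.58 to 12.28 FPKM in Resist tumors. Its change of −0.07 had a 95% interval of −0.27 to 0.12, so that a rise or fall of 1.5-fold lay outside the interval. Lyn, with 15.94 to 19.90 FPKM in naive and 15.74 to 23.14 FPKM in Resist tumors, changed by 0.06 (95% interval −0.16 to 0.28). The groups overlapped for both genes.

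Fyn was under the minimum mean of 1 FPKM in this comparison and was not tested with the others. Its level was 1.06, 0.58, 0.42, 0.28 and 0.36 FPKM in naive libraries and 1.31, 0.71, 1.5, 2.21 and 0.92 FPKM in Resist libraries. The Resist libraries were mostly higher, but naive replicate 1 lay above Resist replicates 2 and 5. With no filter on low values the change was 0.58 (95% interval 0.18 to 0.98, limma adjusted p = 0.0701).

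Csk, the inhibitor of the family, changed by 0.17 (95% interval −0.01 to 0.36, limma adjusted p = 0.166), with 14.93 to 20.83 FPKM in naive and 19.44 to 22.25 FPKM in Resist tumors. The summed FPKM of Src, Yes1, Fyn and Lyn per FPKM of Csk was 1.77 to 2.53 in naive and 1.79 to 2.33 in Resist libraries. That of Src alone per Csk was 0.336 to 0.470 in naive and 0.343 to 0.551 in Resist libraries. The balance between the measured kinases and their inhibitor therefore overlapped between these groups at the mRNA level.

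**Figure D3:**
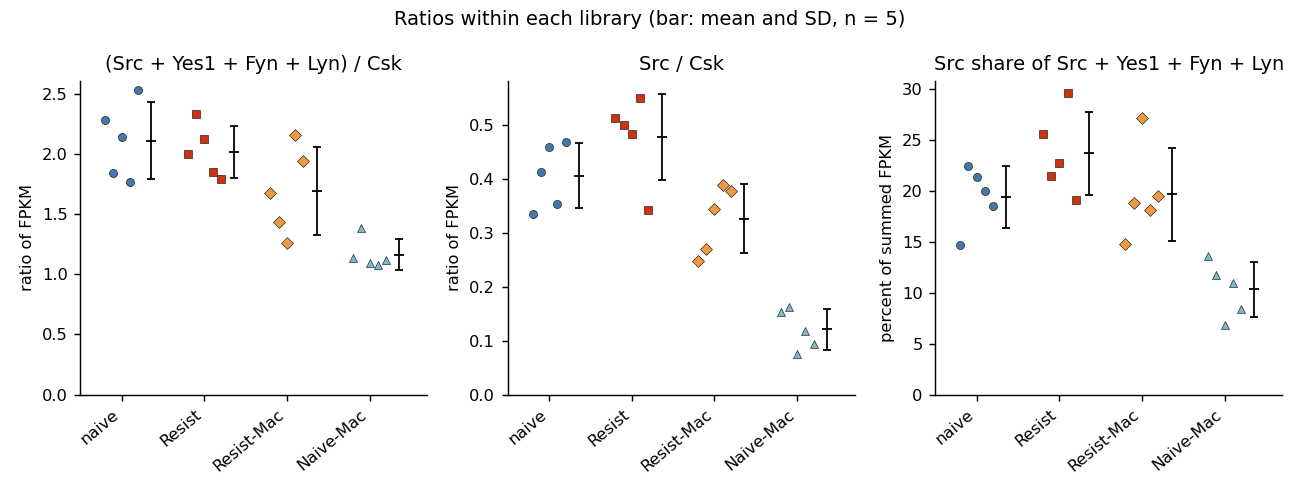
Ratios within each library: summed FPKM of the 4 Src family genes over Csk, Src over Csk, and Src as a percentage of the summed 4 genes; points are libraries and bars are mean and SD (n = 5). Naive and Resist overlap in all 3 panels, and Src over Csk was 0.075 to 0.163 in Naive-Mac, below every other library.

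Among the focal adhesion kinases, Ptk2 had 19.47, 18.49, 21.40, 19.00 and 20.01 FPKM in naive and 16.18, 19.54, 19.81, 17.11 and 18.38 FPKM in Resist tumors. The change of −0.11 had a 95% interval of −0.26 to 0.05 (limma adjusted p = 0.302). Ptk2b was more variable, with 0.52 to 3.13 FPKM in naive and 1.07 to 4.99 FPKM in Resist tumors. Its change of 0.56 was the largest of the 9 tested, and its 95% interval ran from −0.17 to 1.28 (limma adjusted p = 0.257). In all 20 libraries the level of Ptk2 exceeded that of Ptk2b, by a ratio of at least 3.43.

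The adaptors were not called. Pxn changed by 0.05 (95% interval −0.17 to 0.28, limma adjusted p = 0.744), with 15.36 to 18.71 FPKM in naive and 13.44 to 19.76 FPKM in Resist tumors. Bcar1 changed by −0.15 (95% interval −0.37 to 0.06, limma adjusted p = 0.280), with 23.88 to 30.99 FPKM in naive and 20.87 to 27.62 FPKM in Resist tumors. With the correction for length and GC content Bcar1 changed by −0.29 (limma adjusted p = 0.0387), still under 1.5-fold.

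The ligand and receptor upstream of these genes were compared in the same fit. Fn1, encoding fibronectin, had 788.55 to 1154.62 FPKM in naive and 1196.27 to 1573.12 FPKM in Resist tumors. The groups did not overlap, and the change of 0.52 (limma adjusted p = 0.0103) was under the 1.5-fold threshold. Itga5, the fibronectin receptor subunit, rose by 1.28 (SE 0.17, limma adjusted p = 0.000749), from 8.10 ± 1.04 to 21.7 ± 6.37 FPKM. The range of Itga5 was 6.97 to 9.37 FPKM in naive and 13.39 to 28.75 FPKM in Resist tumors, and the groups did not overlap. In Resist vs. Resist-Mac, Fn1 was called higher in Resist, by 1.25 (limma adjusted p = 5.1e-05). Itga5 was not called there, at 0.45 (limma adjusted p = 0.146) with overlapping groups. In Naive vs. Naive-Mac both were called higher in naive tumors, Fn1 by 3.10 (limma adjusted p = 1.8e-07) and Itga5 by 1.27 (0.00193).

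Around the 10 genes, 82 further genes of the adhesion machinery were listed in 10 groups, of which 57 were tested in Resist vs. Naive, 7 were called higher and 0 lower. Over all genes the shares were 5.25% higher and 1.11% lower. The fibronectin receptors had 3 of 7 tested genes called higher, namely Itga5, Itga3 and Itgb3. Itgb3, the beta subunit of the vitronectin receptor, had 0.656 ± 0.285 FPKM in naive and 1.92 ± 0.753 FPKM in Resist tumors. It passed the filter on low values only through Resist, so its call adds no support to the count. Itga3, a laminin receptor subunit, rose by 1.03 (limma adjusted p = 0.0056) with groups that overlapped. In the talin, kindlin and vinculin layer, 2 of 8 were called higher. Actn1, an actin crosslinker, rose by 0.75 from 62.9 ± 7.05 to 108 ± 24.4 FPKM (limma adjusted p = 0.00459), and Flna, which crosslinks actin filaments, rose by 0.64 with overlapping groups (limma adjusted p = 0.0157). Itga3 and Flna are named after their values were seen, to complete the 7.

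The zyxin and tensin layer had 1 of 10 called higher, the tensin gene Tns2, which rose by 1.11 from 8.49 ± 0.894 to 20.8 ± 8.61 FPKM (limma adjusted p = 0.00723). Of 12 tested adaptors and exchange factors that act downstream, 1 was called higher. This was Nck2, an SH2 and SH3 adaptor, which rose by 0.87 from 5.70 ± 0.912 to 11.4 ± 2.54 FPKM (limma adjusted p = 0.00287). None was called among 6 regulators of the Src tail, 3 genes of the Ilk, Pinch and parvin complex, 1 paralog of paxillin and p130Cas, and 10 genes of the paxillin-bound Git, Pix and Pak module. Among further Src family kinases, Lck, Fgr and Blk averaged under 1 FPKM and were not tested, nor were the related kinases Frk, Ptk6 and Srms. The median changes were 0.46 for fibronectin receptors, 0.30 for the talin layer, 0.36 for the zyxin layer, 0.34 for the Ilk, Pinch and parvin complex and 0.31 for the 1 paralog. They were 0.11 for the Git, Pix and Pak module, 0.04 for the downstream adaptors and 0.04 for the Src tail regulators, against 0.03 for all genes. Markers of osteoblasts and stroma (12 genes) summed to 10.3 to 15.9 FPKM in naive and 10.6 to 33.6 FPKM in Resist tumors, and erythroid markers to 54.1 to 107 and 107 to 199.98 FPKM. Of the former, Runx2 averaged 7.83 FPKM in naive and 9.83 FPKM in Resist tumors, and Col1a1 1.84 and 5.95 FPKM. The part of these markers in these results was not tested.

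Resist vs. Resist-Mac addressed whether these genes depended on macrophages in resistant tumors. None of the 10 was called (0 of 10), where 21.7% of the 10049 genes tested were. At an adjusted p under 0.05 without regard to fold there were 2, Yes1 and Bcar1, where 43.7% of all genes passed. Only Yes1 had groups that did not overlap, as had 29.7% of all genes tested. At an unadjusted p under 0.05, the limma fit held the same 2 genes, where 51.6% of all genes passed. The median change was 0.09 for the 10 genes and −0.02 for all genes.

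Yes1 was 11.93, 12.28, 11.97, 9.58 and 11.56 FPKM in Resist and 5.87, 7.92, 7.55, 7.79 and 8.05 FPKM in Resist-Mac replicates 1 to 5. Every Resist-Mac library lay below every Resist library. The change was 0.57 (SE 0.11, 95% interval 0.33 to 0.80, limma adjusted p = 0.00142), just short of 1.5-fold on this scale, although the ratio of mean FPKM was 1.54. It passed the fold threshold with a pseudocount of 0.1 (0.62) and without Resist replicate 4 (0.62), Resist-Mac replicate 2 (0.59) or Resist-Mac replicate 5 (0.59). Bcar1 had 20.87 to 27.62 FPKM in Resist and 14.50 to 22.22 FPKM in Resist-Mac tumors. Its change was 0.33 (95% interval 0.06 to 0.60, limma adjusted p = 0.0482), with groups that overlapped.

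Src had 5.78, 5.32, 9.17, 9.05 and 9.55 FPKM in Resist-Mac tumors, so that 2 libraries lay below and 3 within the Resist range. The change was 0.34 (95% interval −0.07 to 0.74, limma adjusted p = 0.163). Ptk2 changed by 0.24 (95% interval −0.04 to 0.53), Pxn by 0.13 (−0.27 to 0.53), Csk by −0.17 (−0.38 to 0.04), Ptk2b by 0.05 (−0.59 to 0.68) and Fyn by −0.08 (−0.64 to 0.48). Ilk changed by −0.16 (95% interval −0.45 to 0.14), while its overlapping neighbor Taf10 was called higher in Resist-Mac, with a Resist minus Resist-Mac change of −1.04 (limma adjusted p = 1.64e-06). Of the wider adhesion genes, 60 were tested, 15 were called higher in Resist and 2 lower, against 9.71% and 12.0% of all genes. Of the 2 lower, 1 lay in the Ilk, Pinch and parvin complex and 1 was Fgr, at −1.15 (limma adjusted p = 0.0391) with overlapping groups. Fgr averaged 0.208 FPKM in Resist and 2.24 FPKM in Resist-Mac. It passed the filter on low values only through Resist-Mac, so its call adds no support to the count.

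Lyn in Resist-Mac fell into libraries of unlike level: 26.19, 14.38, 16.11, 30.27 and 29.15 FPKM in replicates 1 to 5. Replicates 1, 4 and 5 lay above every Resist library, and replicates 2 and 3 lay within or below the Resist range of 15.74 to 23.14 FPKM. The same 3 libraries were high in 5 pan-leukocyte markers, which summed to 124.39, 49.19 and 88.55 FPKM, against 10.45 and 6.37 FPKM in replicates 2 and 3. Fgr, a Src family kinase gene of myeloid cells, had 4.61, 0.39, 0.08, 2.28 and 3.83 FPKM in replicates 1 to 5. Ptprc, which encodes CD45, the surface protein the sort selected against, had 5.35, 0.43, 0.37, 2.61 and 4.28 FPKM. In such sorted pools, more leukocytes and more RNA per leukocyte cannot be told apart, and the part of leukocyte RNA in the Lyn level was not tested. The labels also give replicates 2 and 3 a code in common, and replicates 4 and 5 another. What these codes mean is not stated, and their part in the Lyn level was not tested.

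**Figure D4:**
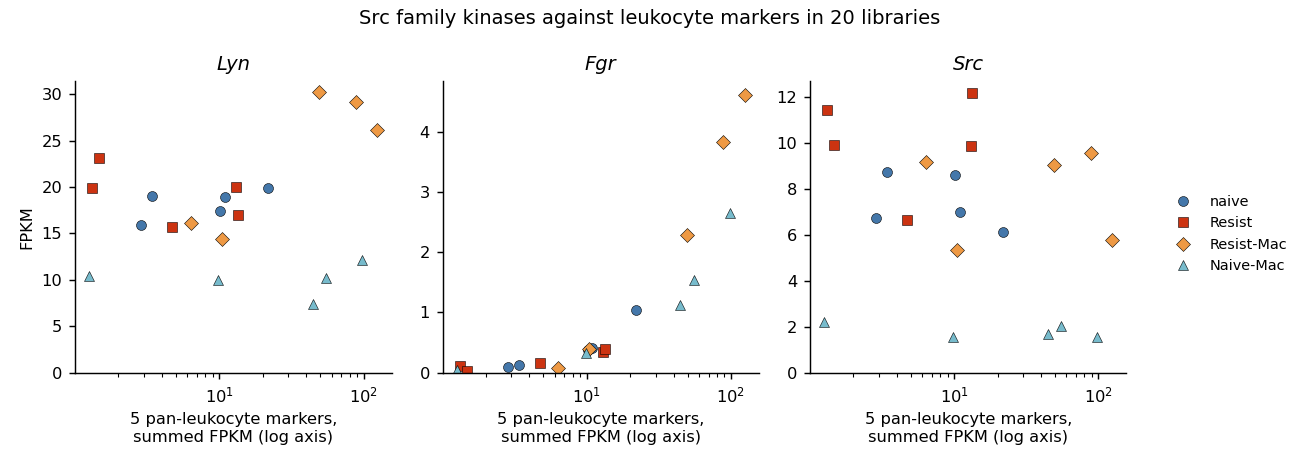
FPKM of Lyn, Fgr and Src against the summed FPKM of 5 pan-leukocyte markers (log axis), 1 point per library, for all 4 groups. The 3 Resist-Mac libraries with the most leukocyte markers have the highest Lyn levels (26.19 to 30.27 FPKM), whereas Lyn in Naive-Mac stays between 7.38 and 12.16 FPKM over a similar span of markers.

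With all libraries Lyn changed by −0.22 (95% interval −0.65 to 0.22, limma adjusted p = 0.409). With only Resist-Mac replicates 2 and 3, whose leukocyte markers summed to 40 FPKM or less, the change was 0.30 (limma adjusted p = 0.126), an alternative chosen after seeing the data. On that basis Yes1 changed by 0.51 (limma adjusted p = 0.0095), Bcar1 by 0.50 (0.0212), Pxn by 0.52 (0.0415) and Ptk2 by 0.47 (0.0268). None of the 10 passed the fold threshold. In that fit 4484 of the 9894 genes tested passed an adjusted p of 0.05, and 2856 were called. The Resist-Mac group is then 2 libraries, of which replicate 2 had the lowest Pxn (9.30 FPKM), Ptk2 (10.74 FPKM) and Bcar1 (14.50 FPKM) of its group.

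Naive vs. Naive-Mac made the same comparison in tumors without enzalutamide. Of the 9 genes tested 8 were called, where 59.7% of the 9837 genes tested were called. In direction, 7 were higher in naive tumors, against 37.5% of all genes, and 1 was lower, against 22.1%. The 5 naive and 5 Naive-Mac libraries did not overlap for 7 of the 9, as for 66.0% of all genes. The median change was 0.99 for these genes and 0.23 for all genes, and median-ratio scaling moved the latter to −0.05. With that scaling the split of all called genes moved from 3691 higher and 2177 lower to 2857 higher and 3073 lower. Of the 9 genes 6 were then called, where 60.5% of all genes were. Lyn, with a change of 0.52 under the fold threshold, and Ptk2b, with 0.44 (limma adjusted p = 0.0904), lost their calls.

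The FPKM of all genes summed to 882276 to 1040436 in Naive-Mac and 509755 to 530961 in naive libraries, without overlap. Osteoblast and stromal markers summed to 2.24 to 3.66 FPKM in Naive-Mac and 10.3 to 15.9 FPKM in naive tumors, and erythroid markers to 213 to 950 and 54.1 to 107 FPKM. Most of the osteoblast and stromal sum in naive tumors was Runx2, which averaged 7.83 FPKM there and 1.28 FPKM in Naive-Mac. Col1a1 averaged 1.84 and 0.478 FPKM, whereas Dcn went the other way, with 0.158 and 0.634 FPKM. The part of these shifts in the changes below was not tested.

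Src had 1.68, 2.21, 1.57, 2.01 and 1.54 FPKM in Naive-Mac replicates 1 to 5, and no naive library was below 6.10 FPKM. It was higher in naive tumors by 1.58 (SE 0.13, 95% interval 1.31 to 1.86, limma adjusted p = 8.3e-08), a ratio of mean FPKM of 4.13. Yes1 had 2.78, 5.99, 8.24, 5.78 and 6.51 FPKM in Naive-Mac and a change of 0.99 (SE 0.20, limma adjusted p = 0.000431). Lyn had 7.38, 10.41, 12.16, 10.15 and 9.95 FPKM and a change of 0.82 (SE 0.12, limma adjusted p = 3.2e-05). All naive libraries lay above all Naive-Mac libraries for these 3 kinases. Fyn, at 0.23 to 0.88 FPKM in Naive-Mac, was under the filter and was not tested.

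Csk stood apart from the kinases it restrains: it had 10.88, 13.58, 20.82, 16.87 and 16.32 FPKM in Naive-Mac, overlapping the naive range, and changed by 0.24 (95% interval −0.09 to 0.56, limma adjusted p = 0.163). The summed FPKM of Src, Yes1, Fyn and Lyn per Csk was accordingly 1.08 to 1.39 in Naive-Mac, below the naive range of 1.77 to 2.53. The ratio of Src to Csk was 0.075 to 0.163. These ratios are within a library, so that they do not move with its scaling, but they can move with transcript length and GC content. The longest Csk transcript has 2749 bases, against 3906 for Src, 4586 for Yes1 and 3463 for Lyn. With the correction for length and GC content the changes were 0.71 for Src, 0.47 for Yes1, 0.61 for Lyn and −0.07 for Csk. The part of length, GC content and batch in the ratios was not tested.

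Ptk2 had 4.12, 5.33, 7.84, 7.72 and 5.01 FPKM in Naive-Mac and was higher in naive tumors by 1.59 (SE 0.15, limma adjusted p = 3.8e-07). Ptk2b had 0.54 to 1.58 FPKM and a change of 0.61 (95% interval 0.09 to 1.13, limma adjusted p = 0.0332), with groups that overlapped. Its mean was 0.896 FPKM in Naive-Mac, so it passed the filter on low values only through naive tumors, and its call adds no support to the count. The call was lost with no filter (limma adjusted p = 0.0651), a pseudocount of 0.1 (0.0514), median-ratio scaling (0.0904) and all groups in 1 fit (0.0568). It was also lost without naive replicate 1, 2 or 3 or Naive-Mac replicate 1, 2 or 5, with changes of 0.47 to 0.60. Pxn had 4.07, 8.13, 9.78, 8.18 and 5.60 FPKM and was higher in naive tumors by 1.14 (SE 0.18, limma adjusted p = 5.6e-05). Bcar1 had 8.45, 12.77, 15.11, 15.27 and 10.13 FPKM and was higher by 1.10 (SE 0.15, limma adjusted p = 1.6e-05). For Ptk2, Pxn and Bcar1 the groups did not overlap.

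Ilk went the other way, with 105.94, 135.42, 121.09, 114.58 and 96.15 FPKM in Naive-Mac, all above the naive libraries. The naive minus Naive-Mac change was −0.93 (SE 0.09, limma adjusted p = 6.5e-07). Taf10 moved in the same direction, from 120 ± 3.79 FPKM in naive to 301 ± 21.5 FPKM in Naive-Mac, a change of −1.32 (limma adjusted p = 2.1e-09). Rrp8 changed by 0.11 (limma adjusted p = 0.345). The share of Ilk reads that came from Taf10 was not tested. Ilk per Taf10 was 0.322 to 0.456 in Naive-Mac and 0.346 to 0.436 in Resist-Mac, below the naive range of 0.468 to 0.566.

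**Figure D5:**
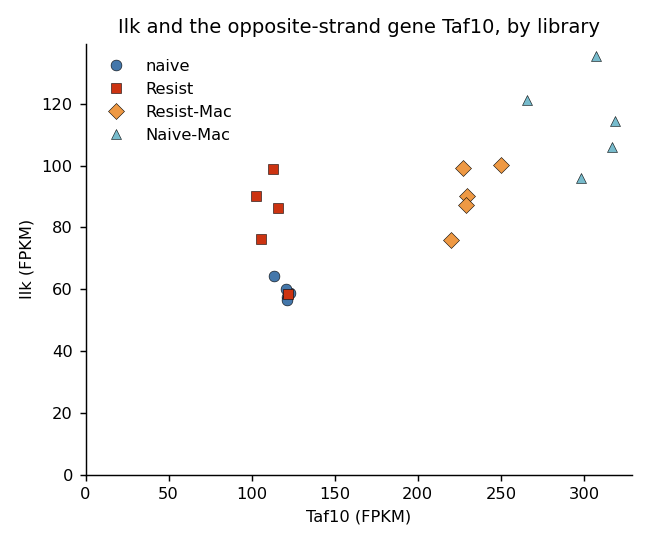
Level of Ilk against that of the opposite-strand gene Taf10 in FPKM, 1 point per library. Resist libraries are spread in Ilk (58.60 to 98.86 FPKM) at a Taf10 level like that of naive libraries, whereas Resist-Mac and Naive-Mac libraries have at least 220.09 FPKM of Taf10.

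Correction for transcript length and GC content left 5 of the 9 called, where 36.9% of all genes were called in that fit: Src (0.71), Ptk2 (0.79), Lyn (0.61), Bcar1 (0.59) and Ilk (−0.75), whereas Yes1 (0.47) and Pxn (0.36) were under the fold threshold and Ptk2b (−0.20) changed sign. Ilk has the shortest transcript of the 9 (2278 bases) and Ptk2 the longest (4678 bases). In the fit without this correction, 43 of 57 tested genes of the wider list were called higher in naive tumors and 0 lower. Over all genes the shares in that fit were 37.5% higher and 22.1% lower. The 43 included all 8 of the talin, kindlin and vinculin layer and all 10 of the Git, Pix and Pak module. Leukocyte markers were high in Naive-Mac replicates 1, 3 and 4, at 44.48, 98.14 and 55.32 FPKM, and low in replicates 2 and 5, at 1.26 and 9.87 FPKM. With replicates 2 and 5 alone, an alternative chosen after seeing the data, 7 of the 9 genes were called. In that fit 5987 of the 9863 genes tested were called. Src changed by 1.55, Ptk2 by 1.74, Pxn by 1.16, Bcar1 by 1.18, Yes1 by 0.85, Lyn by 0.78 and Ilk by −0.93. Ptk2b changed by 0.77 (limma adjusted p = 0.055) and was not called.

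Whether the depleted and undepleted tumors differed by unlike amounts with and without enzalutamide was tested as a difference of differences, Resist minus Resist-Mac less naive minus Naive-Mac. It passed an adjusted p of 0.05 for 6 of 9 genes, where 51.9% of the 9876 genes tested passed. Ptk2 gave −1.35 (SE 0.20, limma adjusted p = 1.3e-05), Src −1.25 (SE 0.23, 0.000125), Lyn −1.03 (SE 0.24, 0.00134), Pxn −1.01 (SE 0.27, 0.00379) and Bcar1 −0.77 (SE 0.20, 0.00326). In these 5 genes the depleted group lay less far below its counterpart in resistant than in naive tumors, and for Lyn its mean lay above. Ilk gave 0.77 (SE 0.17, limma adjusted p = 0.000605), its gain in the depleted group being smaller in resistant tumors.

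With the correction for length and GC content 4 of the 9 passed, as did 3938 of the 9854 genes in that fit. Src gave −0.51, Ptk2 −0.74, Lyn −0.78 and Ilk 0.83, whereas Pxn (−0.35, limma adjusted p = 0.106) and Bcar1 (−0.24, 0.165) no longer passed.

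Yes1 gave −0.42 (95% interval −0.91 to 0.06, limma adjusted p = 0.135), so that no difference was detected for it. Csk gave −0.41 (95% interval −0.78 to −0.03, limma adjusted p = 0.0648) and Ptk2b −0.56 (95% interval −1.40 to 0.28, limma adjusted p = 0.255). The median over all genes was −0.28 and moved to 0.02 with median-ratio scaling, under which the split of passing genes went from 1338 above and 3783 below 0 to 2710 and 2732. The same 6 genes passed with that scaling, where 55.3% of all genes passed, at −1.03 for Ptk2, −0.99 for Src, −0.70 for Lyn, −0.68 for Pxn, −0.43 for Bcar1 and 1.14 for Ilk. Since the labels give Resist-Mac and Naive-Mac batches of their own, the response to depletion and these batches cannot be told apart.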

How the data were processed

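MycCaP-Bo cells were sequenced with paired ends on a BGISEQ-500 in 4 groups of 5 libraries. The submitters' processing notes name Bowtie2 (no version) and mm9, and the counting tool was not given in the sources used here. Per the labels and the values, the authors deposited log2(FPKM + 1) for naive and Resist libraries and FPKM without a log for Resist-Mac and Naive-Mac libraries. The log was undone, which gave numbers with 2 decimals for 100% of 174850 values, and the authors' BGI_novel genes (8.45% of FPKM) were removed. The tables hold FPKM without read counts, so depth is not known and no counting error is given.

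Entrez identifiers were named by a RefSeq table (16613 of 17485, 14053 of 14077 and 15827 of 15867 matched). On log2(FPKM + 1), limma 3.58.1 (R 4.3.3) was run two-sided with a variance trend, leaving out genes that averaged under 1 FPKM in the compared libraries. Each comparison used only its 2 groups, and the difference of differences used all 20 libraries. The script was tested on simulated data. Whether pools came from different mice is not stated, so p-values measure the spread between libraries, which may be technical.

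The 10 genes and the lists around them were chosen with earlier results of these data known. All 10 were named, with Fn1 and Itga5, list genes called in Resist vs. Naive whose groups did not overlap, and the 5 genes most correlated with Src. Alternatives were a pseudocount of 0.1, no filter or a mean of at least 5 FPKM, median-ratio scaling, a correction for length and GC content (natural spline, 4 degrees of freedom), no trend, a replicate block, 1 fit of all groups, a fold change over 2, and leaving out each library. Exon overlaps and pseudogenes came from GENCODE vM21 on GRCm38, a later build than mm9, with minimap2 2.31. Marker lists covered macrophages, neutrophils, lymphocytes, all leukocytes, erythroid cells, platelets, osteoblasts and stroma, osteoclasts, endothelium and prostate epithelium.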

Additional observations from a re-analysis of the deposited data

Results flagged for a closer look

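In 2 of 40 sets of 5 libraries, 1 library of a gene lay far from the rest, about the 2 that chance gives. Both were Yes1: 9.58 FPKM in Resist replicate 4, below the other 4 Resist libraries, and 5.87 FPKM in Resist-Mac replicate 1, below the other 4 Resist-Mac libraries.

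For 6 of the 9 genes tested the difference between undepleted and depleted tumors was not the same in resistant and naive tumors by limma's test of the difference of differences. Of all 9876 genes tested, 51.9% passed that test. The values were −1.25 for Src, −1.03 for Lyn, −1.35 for Ptk2, −1.01 for Pxn, −0.77 for Bcar1 and 0.77 for Ilk, on the log2 scale. With the correction for length and GC content only Src, Lyn, Ptk2 and Ilk passed, where 3938 of the 9854 genes tested did. Batch and depletion cannot be told apart in these values.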

How the results depend on the processing

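Resist vs. Naive kept 0 genes called under all alternatives. Of the single gene values, 722 kept direction and side of the threshold, 8 came to pass it, 16 no longer passed it and 23 changed sign; the cause was not tested. In Resist vs. Resist-Mac 1 of 10 genes, Yes1, was called with a pseudocount of 0.1, where 2524 of the 10049 genes tested were. When single libraries were left out, 0 to 1 were called. For Naive vs. Naive-Mac, the length and GC correction kept 5 of the 9 tested members as called, against 3561 of 9655 over all genes. Raising the fold threshold to 2 kept 4 of the 9, against 3659 of 9837 over all genes. Changed signs with the length and GC correction were Pxn in Resist vs. Naive (−0.088), Ptk2b (−0.091) and Ilk (0.067) in Resist vs. Resist-Mac, Ptk2b (−0.202) and Csk (−0.071) in Naive vs. Naive-Mac, and Yes1 (0.011), Ptk2b (0.078) and Csk (0.012) in the difference of differences. That correction also took Pxn (−0.354) and Bcar1 (−0.241) out of the difference of differences. Changed signs with median-ratio scaling were Pxn in Resist vs. Naive (−0.003) and Csk in Naive vs. Naive-Mac (−0.063). With few leukocyte markers only, Resist vs. Resist-Mac changed sign for Fyn (0.389), Lyn (0.302) and Ptk2b (−0.032). Leaving out single libraries gave −0.01 to 0.122 for Lyn in Resist vs. Naive, and −0.222 to 0.09 for Fyn, −0.084 to 0.3 for Ptk2b and −0.036 to 0.223 for Pxn in Resist vs. Resist-Mac. In the difference of differences Csk passed without naive replicate 5 (−0.477), Resist-Mac replicate 2 (−0.469) or Naive-Mac replicate 3 (−0.512), and Yes1 without the last (−0.546).

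Same-numbered libraries did not deviate together (correlations from −0.269 to 0.356), so the replicate number did not pair them. With the replicate number as a block 0, 0, 8 and 6 genes were called in the 4 tests, as without it. Over all genes 624 of 10119, 2228 of 10049, 5888 of 9837 and 5184 of 9876 were called with the block.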

Other observations

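The genes whose level followed that of Src most closely over the 10 naive and Resist libraries were Papln (Pearson correlation 0.977), Casp9 (0.965), Washc5 (0.957), Trim2 (0.952) and Actn4 (0.951). Among the other 8 tested genes described above, the correlation with Src was 0.901 for Ilk, 0.71 for Csk, 0.658 for Pxn, 0.318 for Lyn, 0.282 for Ptk2b, 0.214 for Bcar1, −0.395 for Yes1 and −0.472 for Ptk2. These libraries belong to 2 groups and the values are descriptions.

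Macrophage markers (12 genes) summed to 12.4 to 116 FPKM in naive and Resist libraries, 41.7 to 875 FPKM in Resist-Mac and 6.81 to 535 FPKM in Naive-Mac libraries. Lyz2 had the highest mean of these genes in every group: 38.1 FPKM in naive, 21.1 in Resist, 304 in Resist-Mac and 223 in Naive-Mac. Mertk was lower in the depleted groups, with 5.73 FPKM in naive, 6.88 in Resist, 2.87 in Resist-Mac and 1.13 in Naive-Mac. Adgre1 averaged at most 0.274 FPKM in any group. The sums therefore do not describe all 12 genes. In Resist-Mac libraries erythroid markers summed to 130 to 310 FPKM and osteoblast and stromal markers to 4.95 to 14.1 FPKM. Over all libraries the summed level was 0.06 to 38.0 FPKM for osteoclast, 0.03 to 6.68 FPKM for lymphocyte, 0.03 to 3.19 FPKM for platelet, 0.19 to 3.26 FPKM for endothelial and 441 to 1197 FPKM for prostate epithelial markers.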
